A study of Homo sapiens with 14 samples.

Results

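The cytosolic ribosomal protein genes encode the protein part of the ribosome that translates messenger RNA outside mitochondria. Members were the genes whose platform symbol starts with RPL (large subunit) or RPS (small subunit) and a number, or is RPLP0, RPLP1, RPLP2, RPSA or FAU. S6 kinase genes, a Y-linked paralogue and pseudogenes were left out. This gave 58 of the 11963 genes with a probe set of their own, 36 of the large and 22 of the small subunit, and 56 of them were bright enough to be tested among 7178 genes. RPLP0, RPSA, RPL10, RPL26, RPL36A, RPL7L1 and RPL22L1 were among the genes that had no probe set with a single symbol and were not analysed here. In all, 59 probe sets with several symbols included a ribosomal protein gene, 51 of them with a small nucleolar RNA symbol. They covered 24 ribosomal protein symbols, of which only 5 were also members, and these probe sets were not used.

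The cells were Kasumi-1, an established human acute myeloid leukaemia line with the t(8;21) translocation, whose fusion protein AML1-ETO (RUNX1-RUNX1T1) is the target of one of the siRNAs, and all groups share that line. The 14 oligonucleotide arrays, each taken after 96 h, fell into 6 groups. The AML1-ETO siRNA was given by Amaxa nucleofection, an electrical transfection, on 3 arrays, and the firefly luciferase control siRNA by nucleofection on 2. The AML1-ETO siRNA was given by siLentFect lipid reagent on 3 arrays, and the luciferase siRNA by lipid on 3. Nucleofection without siRNA was measured on 1 array and untransfected cells on 2. The design text speaks of triplicates, and the other luciferase nucleofection array was not analysed here. Untransfected cells were also short of a triplicate, with replicates 1 and 3, as was nucleofection without siRNA, with replicate 1 only. The siRNA was at 1.5 µM by nucleofection and 240 nM by lipid, so that method and dose cannot be told apart. Whether replicate arrays stem from separate cultures is not stated in the labels. The p-values therefore cover the variation among arrays, possibly technical.

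Ribosomal proteins are needed in near-equal numbers, and their genes are among the most strongly transcribed in dividing cells. In vertebrates their messenger RNAs typically begin with a C followed by an unbroken run of pyrimidines, the 5′ terminal oligopyrimidine (TOP) motif. Through it the mTOR pathway controls their translation, and the RNA-binding protein LARP1 holds them untranslated and stable when mTOR is inactive. In leukaemia cells ribosome production is tied to growth and to the transcription factor MYC. Loss of 1 copy of certain members, such as RPS19, RPS24 or RPS10, causes Diamond-Blackfan anaemia, a failure of red cell production.

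The sequence at the annotated start was examined because it is what the family is known to share and the choice of members did not use it. RefSeq promoter sequences (GRCh38.p14) were found for 50 of the 58 members. A run of at least 8 pyrimidines (C or T on the transcribed sense strand) that touches the stretch from 5 bases before to 5 bases after the start occurred in 36 of the 50, or 72%, against 11.0% of all 27305 promoters. A C at the start followed by 4 pyrimidines occurred in 66% of members, against 4.04% of all promoters. The windows below hold 15 bases on each side of the start for genes on which the results turn, with the longest such run in capitals. They lie at chr3:12841551-12841580 (minus strand) for RPL32, chr10:78033848-78033877 (plus) for RPS24, chr6:33272060-33272089 (plus) for RPS18, chr6:34426055-34426084 (minus) for RPS10, chr3:101686704-101686733 (minus) for RPL24, chr12:56116618-56116647 (plus) for RPL41, chr11:119018329-119018358 (minus) for RPS25, chr1:153990747-153990776 (plus) for RPS27 and chr15:63157463-63157492 (minus) for RPS27L.
RPL32: gggttacgacccatcagCCCTTgcgcgcca
RPS24: cggcgaatcgtggTTCTCTTTTCCTCCTTg
RPS18: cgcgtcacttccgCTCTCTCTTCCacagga
RPS10: ccgcgcatgCTCCTTCCTTTCCagccccgg
RPL24: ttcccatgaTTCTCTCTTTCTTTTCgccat
RPL41: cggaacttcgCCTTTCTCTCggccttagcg
RPS25: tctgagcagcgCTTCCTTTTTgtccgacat
RPS27: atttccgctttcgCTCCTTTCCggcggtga
RPS27L: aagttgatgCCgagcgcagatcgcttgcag

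RPS24 and RPL24 had runs of 16 pyrimidines, RPS10 13, RPS18 11, RPL41 and RPS25 10 and RPS27 9. RPS27L, a paralogue of RPS27 that is known as a p53 target, had a run of 2. RPL32 had a run of 5 close to the start that RefSeq annotates. The median over the 50 members was 11, against 3 over all promoters. The core letters TGTGGT of the RUNX binding motif, searched on both strands from 250 bases before to 50 after the start, occurred in 16% of member promoters, against 13.1% of all. CCGGAAG, a core of ETS factor motifs, occurred in 36% of member promoters, against 10.7% of all, and ATGGCGGC, a core of the YY1 motif, in 8%, against 3.21%. A match is a string of letters and not a measured binding site.

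The cell line was checked against its markers, and MPO, KIT and RUNX1T1 were above the floor of 20 on all 14 arrays. CD34 was low, between 29.1 and 79.5, and ANPEP (CD13) was below the floor on every array. Markers of other cells were dim but not all absent: 1 of 3 measured T cell markers, 0 of 2 B cell markers, 1 of 2 red cell markers and 2 of 5 markers of cells outside the blood were above the floor on all 14 arrays. These were CD3E (30.9 to 84.7), HBB (39.5 to 70.4), COL1A1 of connective tissue (33.0 to 111) and EPCAM, an epithelial marker with a median signal of 188, while CD3G and ALAS2 were below the floor throughout. RUNX1T1, which reads the siRNA target, averaged 299 with AML1-ETO siRNA against 704 with luciferase siRNA by nucleofection (log2 difference −1.24, adjusted p = 0.00288, limma). By lipid it averaged 443 with AML1-ETO siRNA against 556 with luciferase siRNA (−0.34, adjusted p = 0.999, limma). Scale factors, the number by which the authors multiplied each array to reach a common mean, were 0.964 to 1.56 on the 5 arrays of nucleofected siRNA, 0.488 to 1.15 on the 6 lipid arrays, 1.12 for nucleofection without siRNA and 0.571 and 1.00 in untransfected cells. The log2 ratio of the 3′ to the 5′ GAPDH control probe set, a sign of RNA integrity and labelling, was −0.18 to 0.25 on the arrays of nucleofected siRNA and −0.38 to −0.17 on the lipid arrays. The same ratio for ACTB did not set the methods apart, at 0.29 to 0.84 on the arrays of nucleofected siRNA and 0.30 to 0.59 on the lipid arrays. Only the GAPDH ratio was used as a covariate.

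Together the 58 members took up a larger part of the measured signal by nucleofection than by lipid. Their share of the summed signal was 10.5%, 9.36% and 10.6% with AML1-ETO siRNA by nucleofection and 9.60% and 9.47% with luciferase siRNA by nucleofection, against 8.86%, 8.72% and 6.84% with AML1-ETO siRNA by lipid and 7.80%, 7.75% and 7.52% with luciferase siRNA by lipid. It was 9.75% after nucleofection without siRNA and 7.94% and 8.39% in untransfected cells. All 6 arrays of nucleofected cells thus lay above all 8 others. The lipid array of AML1-ETO siRNA replicate 3, which had the smallest scale factor, was the lowest of the 14 arrays for 31 of the 56 members tested. The highest array was AML1-ETO nucleofection replicate 3 for 18 members and replicate 1 for 16. Arrays with larger scale factors tended to have larger shares, and nucleofection arrays mostly had the larger factors. Between factors of 0.96 and 1.17, nucleofection arrays had shares of 9.36%, 9.75% and 9.60%, and the others 8.39%, 7.80% and 8.72%. These few arrays mix the siRNA groups, and the part of the scale factor in the shares was not tested. Whether fewer cells or less RNA per cell lie behind any of these levels cannot be told apart in bulk RNA.

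**Figure D1:**
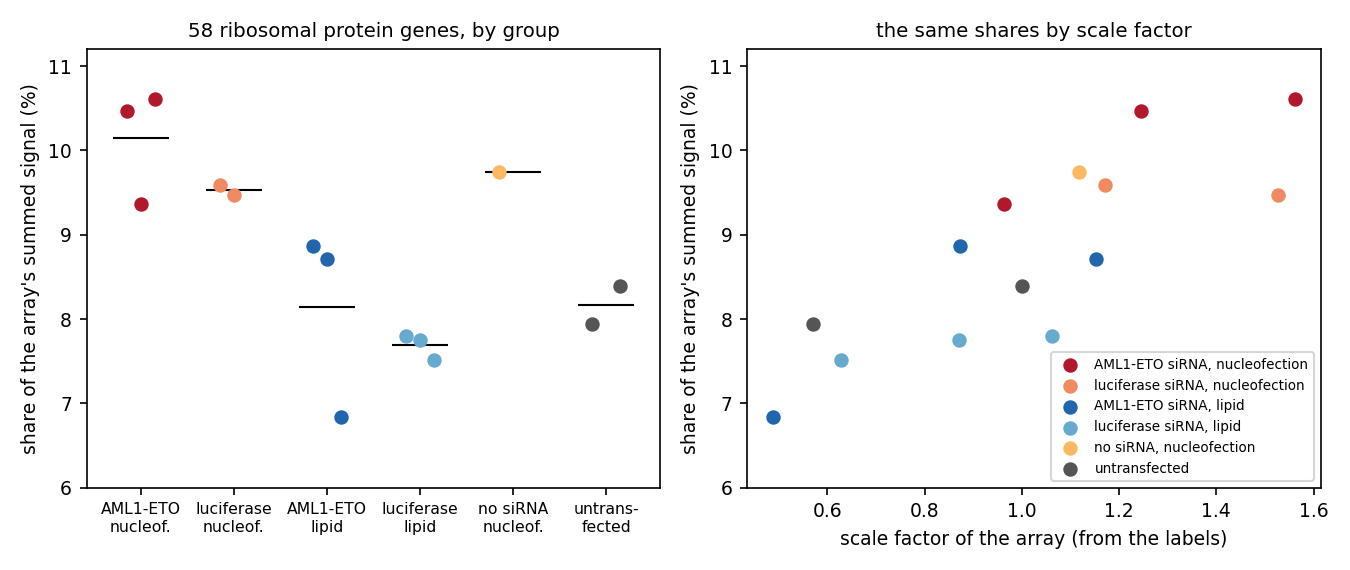
Share of the summed array signal (%) taken by the 58 ribosomal protein genes, by group (left, points are arrays and lines are means) and against the scale factor of the array (right). The 6 arrays of nucleofected cells sit between 9.36% and 10.6%, above the other 8 arrays, which lie between 6.84% and 8.86%. The larger shares tend to go with the larger scale factors, which are mostly those of nucleofected cells.

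No ribosomal protein gene was called different between AML1-ETO and luciferase siRNA. Averaged over both methods, 0 of 56 members passed an adjusted p of 0.05 (limma, adjusted over all 7178 genes), where 1.66% of all genes did. An unadjusted p below 0.05 was found for 0 members and for 1031 of all genes. The members' differences were small and mostly on one side of 0: 51 of 56 were above 0, with a median log2 difference of 0.09, against −0.07 over all genes. Every one of the 22 small-subunit genes was above 0 on the probe set used, with values between 0.01 and 0.16. Further probe sets of RPS10, RPS21, RPS28, RPS14 and RPS9 reached −0.51, −0.34, −0.33, −0.10 and −0.05. Those of RPS4X, RPS6, RPS7, RPS12, RPS16 and RPS19 did not fall below 0. After quantile normalization the members' median was 0.03, with 39 of 56 above 0, and 0.05 without AML1-ETO lipid replicate 1, with 43 of 56 above 0. It was 0.14 without AML1-ETO lipid replicate 3, 0.14 with arrays centred on their medians and 0.19 with the GAPDH ratio as a covariate.

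The gene with the smallest p on the higher side was RPL36, a large-subunit protein, whose log2 difference averaged over both methods was 0.17 (adjusted p = 0.454, limma). By nucleofection its signal was 2215, 2373 and 2617 with AML1-ETO siRNA, against 1958 and 1985 with luciferase siRNA, and by lipid it was 2230, 1946 and 1957 with AML1-ETO siRNA, against 2019, 1789 and 2078 with luciferase siRNA. The arrays of RPL36 did not overlap between the siRNAs by nucleofection and overlapped by lipid. RPS9, which lies in the body of the small subunit, was at 0.15 and RPS29, a zinc-binding protein of its head, at 0.16. On the lower side stood RPLP2 at −0.55, RPL27A at −0.34 and RPL26L1, a paralogue of RPL26, at −0.12, with adjusted p between 0.544 and 0.652 (limma).

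By nucleofection alone 0 of 56 members were called (limma), against a background of 2.62% of genes. An unadjusted p below 0.05 was found for 0 members and for 1356 of all 7178 genes. The median over members was 0.08, against −0.11 over all genes, and 41 of 56 were above 0. The median was 0.01 after quantile normalization, with 30 of 56 above 0, 0.16 with arrays centred on their medians, and 0.13 and 0.05 without AML1-ETO replicates 2 and 3. With the GAPDH ratio as a covariate it was 0.33. That log2 ratio was −0.18 to −0.11 on the AML1-ETO nucleofection arrays, against 0.03 and 0.25 on the luciferase nucleofection arrays, without overlap, and its part in the difference was not tested. The ACTB ratio overlapped, at 0.29 to 0.46 with AML1-ETO siRNA, against 0.84 and 0.38 with luciferase siRNA. The arrays of the siRNAs did not overlap, with AML1-ETO higher, for 16 of 56 members, where 12% of all genes did so, and with AML1-ETO lower for 2, where 25.3% of all genes did so. RPS3, which lines the entry channel for messenger RNA and is also known from DNA repair, had 8064, 7248 and 8048 with AML1-ETO siRNA, against 6226 and 6040 with luciferase siRNA, a log2 difference of 0.34 (95% interval −0.04 to 0.73, adjusted p = 0.321, limma). RPS27, a zinc-finger protein of the small subunit, had 5016, 5022 and 5541 with AML1-ETO siRNA, against 4614 and 3988 with luciferase siRNA, a log2 difference of 0.27. For both genes the AML1-ETO arrays lay above the luciferase arrays. Among further probe sets of members, the lowest of RPL37A, RPL38, RPS21 and RPS10 were at −1.30, −0.87, −0.71 and −0.62. The highest of RPL12, RPL31 and RPL29 were at 0.48, 0.46 and 0.43.

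RPL24, a large-subunit protein at the interface between the subunits, was on the other side by nucleofection, with 5401, 5242 and 5488 with AML1-ETO siRNA, against 6336 and 6074 with luciferase siRNA (log2 difference −0.21, adjusted p = 0.460, limma). RPL27A had 240, 190 and 260 with AML1-ETO siRNA, against 654 and 203 with luciferase siRNA, so that its difference of −0.68 went with 1 luciferase array. Without luciferase nucleofection replicate 2 the count of called members became 1, RPL27A, at −1.52 (adjusted p = 0.0471, limma). That fit has 1 luciferase nucleofection array, the brighter for RPL27A, which is assumed to vary like the other groups.

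By lipid, 0 of 56 members were called (limma), against 0.125% of all genes. An unadjusted p below 0.05 was found for 0 members and for 325 of all 7178 genes. The median over members was 0.07, against −0.03 over all genes, 47 of 56 were above 0, and the arrays of no member were separated in either direction, against 3.58% of genes higher and 4.95% lower. RPL18 was at 0.25, RPS15A and RPL10A at 0.22, each with adjusted p = 0.999 (limma). RPL18 had 4768, 4813 and 3759 with AML1-ETO siRNA, against 3138, 3948 and 4156 with luciferase siRNA, and the groups overlapped. The median over members by lipid was −0.00087 without AML1-ETO replicate 1, with 27 of 56 above 0, 0.03 without replicate 2, with 35 of 56 above 0, and 0.17 without replicate 3. It was 0.04 with the mean of all probe sets.

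The AML1-ETO effect was also compared between the methods, as the effect by nucleofection minus that by lipid. None of 56 members was called (0, limma, background 0.0557%). An unadjusted p below 0.05 was found for 0 members and for 772 of all 7178 genes. The smallest p was that of RPS3, at 0.48 (95% interval −0.04 to 1.00), and RPS27 followed at 0.31 and RPLP1 at 0.29. RPL18 stood at −0.35, RPS15A at −0.34 and RPL24 at −0.28, and adjusted p for these 6 genes lay between 0.512 and 0.677 (limma). The dim RPL27A and RPLP2 stood at −0.66 and −0.52 with wide intervals, −1.79 to 0.46 and −2.21 to 1.17. Over members the median was 0.01 with all arrays, and it ran from −0.12 (AML1-ETO lipid replicate 3 left out) to 0.08 (replicate 1 of that group left out) with 1 array left out. It was −0.04 after quantile normalization and 0.26 with the GAPDH ratio as a covariate.

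**Figure D2:**
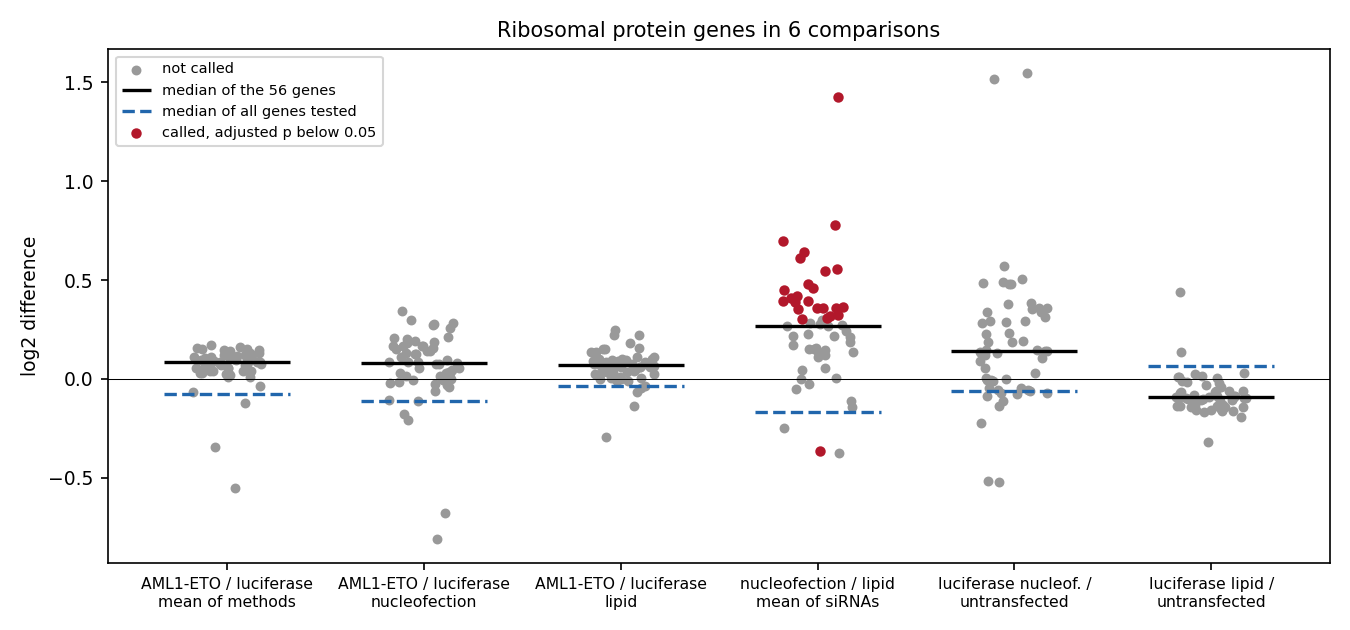
Log2 differences of the 56 tested ribosomal protein genes (points) in 6 comparisons, with the median of the members (solid line) and of all genes tested (dashed line). Called genes, in red, appear only in the comparison of nucleofection with lipid, where the members' median is 0.27 against −0.17 over all genes.

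Between the transfection methods the members differed widely, with 24 of 56 higher and 1 lower by nucleofection. Values by nucleofection were set against those by lipid, with both siRNAs weighted equally. The 24 make 42.9% of the members, where 3.68% of all genes tested were called higher, and the 1 lower gene compares with 22% of all genes (limma, adjusted p below 0.05). In either direction 25 members were called, where 25.6% of all genes were. The median over members was 0.27 on the log2 scale, against −0.17 over all genes, and 49 of 56 members were above 0. Of the large subunit 16 of 34 genes were higher and 0 lower, and of the small subunit 8 of 22 were higher and 1 lower. All 5 nucleofection arrays lay above all 6 lipid arrays for 19 members, or 33.9%, where this held for 1.37% of all genes, and below them for 0, where this held for 11.9%.

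Among the large-subunit genes RPL32 had the smallest p. Its signal was 11228, 9054 and 10630 with AML1-ETO siRNA and 10159 and 9234 with luciferase siRNA by nucleofection, against 7183, 7746 and 5037 with AML1-ETO siRNA and 6854, 5838 and 6066 with luciferase siRNA by lipid. Every nucleofection array lay above every lipid array. The log2 difference was 0.64 (SE 0.13, 95% interval 0.36 to 0.93), 1.56-fold, with adjusted p = 0.00489 (limma). The array without siRNA stood at 9784 after nucleofection, against 5908 and 7188 in untransfected cells.

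RPL23A, which sits at the exit of the peptide tunnel, ranged from 6540 to 12232 by nucleofection with a median of 8423, against 4586 to 6268 by lipid with a median of 5623 (log2 difference 0.70, adjusted p = 0.00985, limma). RPL29, a basic protein of the large subunit, ranged from 6538 to 8209 by nucleofection, against 4660 to 6082 by lipid (0.46, adjusted p = 0.0102, limma). RPL3, which reaches toward the peptidyl transferase centre, ranged from 7359 to 8817 by nucleofection, against 5142 to 7008 by lipid (0.42). These 3 genes had no overlap between the methods. RPL7 was at 0.41, RPL24 at 0.36 and RPL41, the smallest ribosomal protein, at 0.48, also without overlap. The RPL41 range was 9117 to 11134 by nucleofection, against 5843 to 8954 by lipid.

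Among the small-subunit genes RPS24 had 8906, 8320 and 10182 with AML1-ETO siRNA and 8750 and 8775 with luciferase siRNA by nucleofection, against 6928, 7016 and 4875 with AML1-ETO siRNA and 6484, 5789 and 5606 with luciferase siRNA by lipid. The log2 difference was 0.56 (SE 0.12), 1.47-fold, with adjusted p = 0.00625 (limma). RPS18, which contacts the large subunit from the head of the small one, had 10725, 9011 and 11828 with AML1-ETO siRNA and 9481 and 9299 with luciferase siRNA by nucleofection, against 7333, 7838 and 5159 with AML1-ETO siRNA and 6860, 6326 and 5730 with luciferase siRNA by lipid. For both genes the nucleofection arrays all lay above the lipid arrays, and RPS18 differed by 0.61 (SE 0.13, adjusted p = 0.00672, limma). RPS10, a protein of the head near the entry of the messenger RNA, had 14486, 12433 and 14466 with AML1-ETO siRNA and 12758 and 12697 with luciferase siRNA by nucleofection, against 10367, 10651 and 7189 with AML1-ETO siRNA and 9505, 8766 and 8393 with luciferase siRNA by lipid. The RPS10 difference was 0.55 (adjusted p = 0.00710, limma) on the deposited scale and −0.01 after quantile normalization.

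The 1 member called lower was RPS25, a small-subunit protein needed for initiation at several viral internal ribosome entry sites. Its signal was 1052, 1213 and 1354 with AML1-ETO siRNA and 1240 and 1112 with luciferase siRNA by nucleofection, against 1782, 1509 and 1371 with AML1-ETO siRNA and 1277, 1611 and 1664 with luciferase siRNA by lipid. The ranges overlapped, and the log2 difference was −0.36 (SE 0.12, adjusted p = 0.0424, limma; between 0.00800 and 0.343 over 24 alternatives, 15 of which ended the call). RPL36AL, an expressed paralogue of RPL36A, was at −0.38 with adjusted p = 0.0650 (limma), with 620 to 794 by nucleofection, against 646 to 1046 by lipid.

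**Figure D3:**
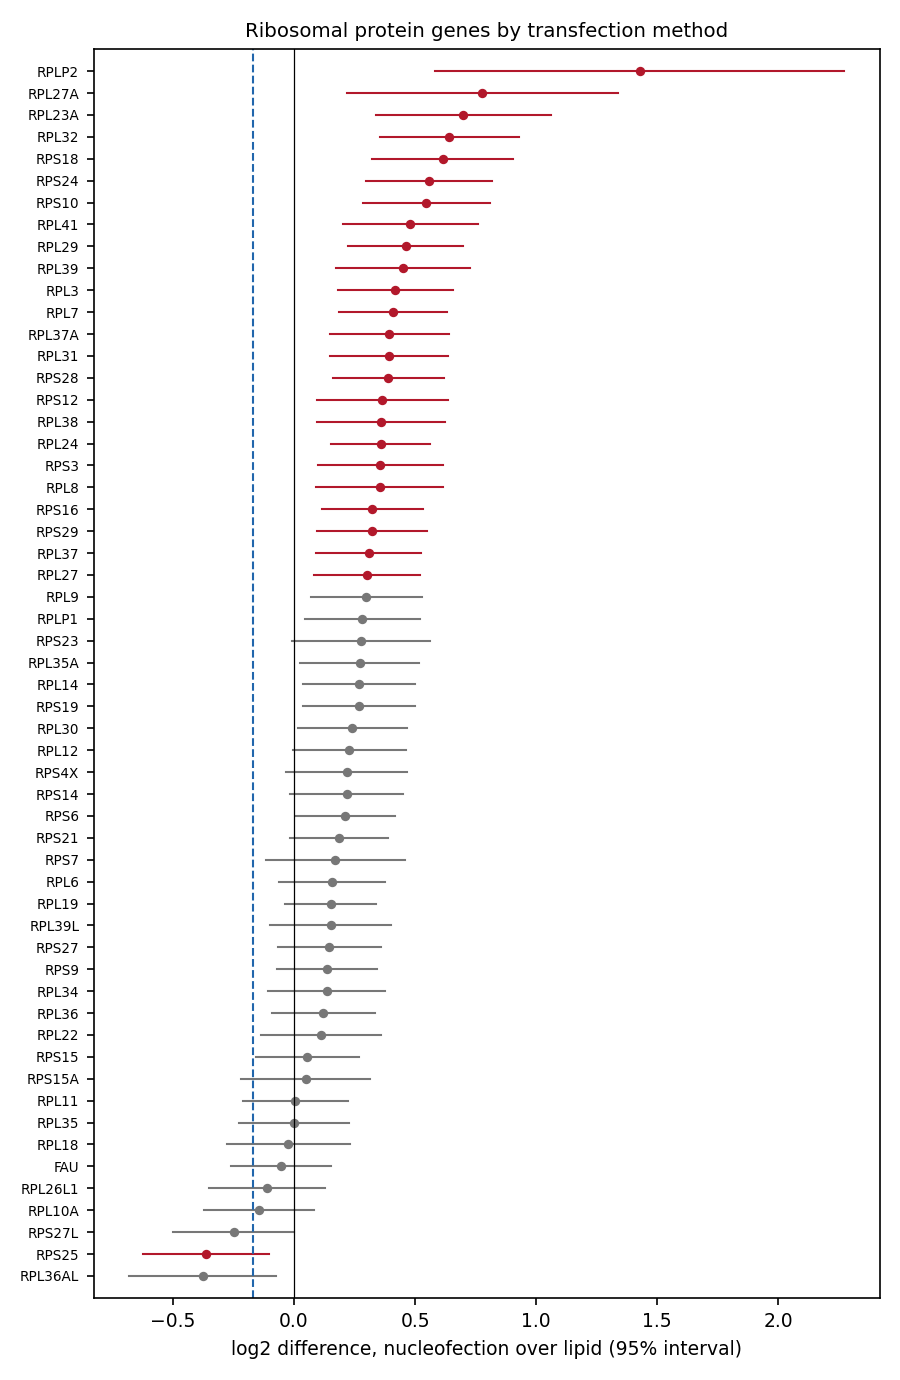
Log2 difference between nucleofection and lipid, averaged over both siRNAs, for each of the 56 ribosomal protein genes with its 95% interval; red marks the 25 called genes and the dashed line the median of all genes, −0.17. Of the 56 points 49 lie above 0, and RPS25 is the 1 called gene below it.

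The paralogues gave mixed values by method. RPS27 was at 0.15 and RPS27L at −0.25 (adjusted p = 0.301 and 0.132, limma), with RPS27L between 216 and 263 by nucleofection, against 254 and 341 by lipid. After quantile normalization the sign of RPS27L was positive, at 0.01, and with arrays centred on their medians it was −0.08. RPL39, at the wall of the peptide tunnel, was called at 0.45, while RPL39L, its paralogue known from mouse testis, was at 0.15 with adjusted p = 0.358 (limma) and signals of 60.7 to 87.4 over both methods. RPL26L1 was at −0.11. RPL3L, the striated muscle paralogue of RPL3, was below the floor on all 14 arrays, and RPL10L, a testis-expressed paralogue of RPL10, exceeded 20 on 1 array only, at 22.5, so neither was tested.

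The stalk proteins RPLP1 and RPLP2 bind elongation factors at the side of the large subunit. RPLP1 ranged from 5162 to 6919 by nucleofection, against 3988 to 5416 by lipid, a log2 difference of 0.28 (adjusted p = 0.0748, limma). RPLP2 was read by a dim probe set, with 103, 74.2 and 98.96 with AML1-ETO siRNA and 384 and 66.7 with luciferase siRNA by nucleofection, against 25.0, 65.9 and 40.6 with AML1-ETO siRNA and 53.0, 69.7 and 33.4 with luciferase siRNA by lipid. Several of these signals lie close to the floor of 20. Its difference of 1.43 (adjusted p = 0.0193, limma) became 0.80 (adjusted p = 0.0805, limma) without luciferase nucleofection replicate 1 and 0.89 (adjusted p = 0.0624, limma) with a floor of 64. It was 0.71 with the mean of all probe sets, but the other RPLP2 probe set had a difference of 0. That mean is therefore no second reading of RPLP2. With the GAPDH ratio as a covariate the RPLP2 difference was 0.39 (adjusted p = 0.896, limma). RPL27A, likewise called at 0.78 (adjusted p = 0.0433, limma), was at 0.36 (adjusted p = 0.215, limma) without that array. The call of RPL27A also ended without AML1-ETO lipid replicate 1, 2 or 3, AML1-ETO nucleofection replicate 1 or 3, or luciferase lipid replicate 1 or 3, with differences of 0.69 to 0.82, and the GAPDH ratio as a covariate gave −0.45. FAU, whose product carries a ubiquitin-like part fused to the small-subunit protein eS30, was at −0.05.

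Nucleofection stood above lipid with each siRNA taken alone. The median over members was 0.27 with AML1-ETO siRNA and 0.23 with luciferase siRNA, with 47 and 49 of 56 members above 0. The array without siRNA shares no array with these comparisons, and its median over members against untransfected cells was 0.19, with 43 of 56 above 0 and no test.

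The members' difference was set beside that of other bright genes and of other translation genes. Of the 48 members whose signal averaged 2000 or more, 22 were called higher and 0 lower, with a median of 0.28. Of the 53 other genes past that mean, 8 were called higher and 6 lower, with a median of −0.03. Of 44 tested genes for translation factors and related proteins, 2 were called higher, EEF1A1, the elongation factor that delivers aminoacyl-tRNA, at 0.50 and TPT1 at 0.50. In that list 6 were called lower, among them the initiation factor gene EIF3I at −0.51 and the termination factor gene ETF1 at −0.47, and the median was −0.06. Among the members, the pyrimidine run described above was present in 80% of the 20 called higher with a known promoter, and in 69.0% of the 29 other tested ones.

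The count of called members depended on how the arrays were scaled. After quantile normalization 3 members were called, RPLP2, RPL27A and RPL39L, and the median over members was 0.02, against −0.01 over all genes, of which 501 were then higher and 632 lower in place of 264 and 1577. Quantile normalization gives all arrays the same set of values. Of the 58 members 46 were in the top 1% of probe sets on every array. A rise shared by such genes can be removed by that scaling, so it cannot show whether there was one. When each array was centred on its median, 35 members were called, all higher, with a median over members of 0.44, against 0.01 over all genes, of which 607 were higher and 711 lower. With arrays rescaled without the ribosomal protein probe sets, 28 members were called, all higher. Their median was then 0.35, against −0.09 over all genes, of which 380 were higher and 1098 lower. With the log2 scale factor of the array as a covariate, 0 members were called (13 at an unadjusted p below 0.05, limma) and their median was 0.15. With the GAPDH ratio as a covariate, 0 were called (1 at an unadjusted p below 0.05, limma), their median was 0.05, and 17 of 7178 genes were called at all.

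Single arrays moved the count too, and without either luciferase nucleofection array the lone one left is assumed to vary like the other groups. It was 7 without luciferase nucleofection replicate 1, namely RPL32, RPS24, RPS18, RPS10, RPL23A, RPL29 and RPL7, and 13 without luciferase nucleofection replicate 2 or luciferase lipid replicate 3. It was 14 and 15 without AML1-ETO nucleofection replicates 1 and 3, and 16 without luciferase lipid replicate 2. Without AML1-ETO lipid replicate 3 it was 17, and the median over members was 0.21. The part of scaling, of RNA integrity and of dose in the difference between the methods was not tested further.

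**Figure D4:**
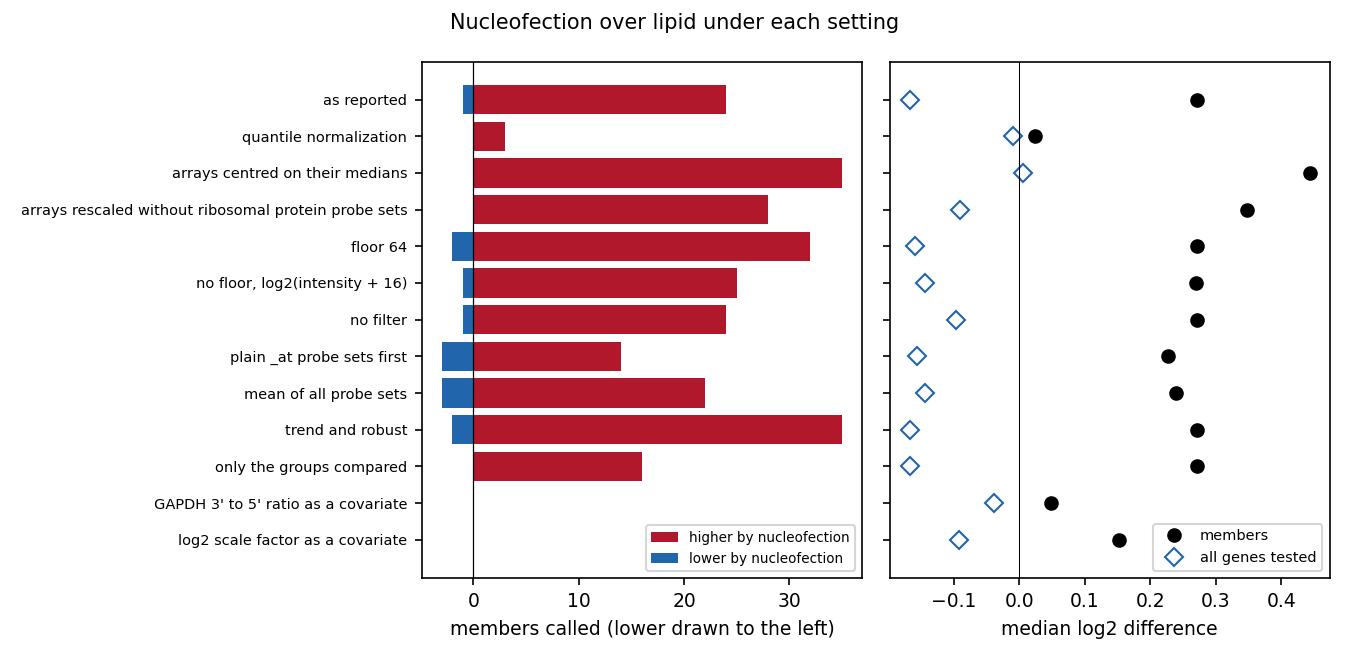
Number of ribosomal protein genes called between nucleofection and lipid (left, higher to the right of 0 and lower to its left) and median log2 difference of the members and of all genes tested (right), under each way of processing. The count is 25 as reported, 35 with arrays centred on their medians, 3 after quantile normalization and 0 with either covariate.

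Against untransfected cells, luciferase siRNA by nucleofection gave 0 called members of 56 (limma), against 5.14% of all genes. An unadjusted p below 0.05 was found for 10 members, 8 of them higher. Of all 7178 genes 1665 had one, 586 of them higher. The median over members was 0.14, against −0.06 over all genes. It was 0.02 after quantile normalization, 0.05 with the log2 scale factor and −0.07 with the GAPDH ratio as a covariate, and 0.21 with arrays centred on their medians. The arrays did not overlap, with nucleofection higher, for 33 members, where 22% of all genes did so, and with nucleofection lower for 5, where 32.3% did so. RPL32 had 10159 and 9234 with luciferase siRNA, against 5908 and 7188 in untransfected cells (log2 difference 0.57, adjusted p = 0.138, limma). RPS24 had 8750 and 8775 with luciferase siRNA, against 6102 and 6395 in untransfected cells (0.49, adjusted p = 0.160, limma). RPS25 lay on the other side, with 1240 and 1112 with luciferase siRNA, against 1619 and 1736 in untransfected cells (−0.51, adjusted p = 0.140, limma), as did RPL36AL at −0.52. Without luciferase replicate 2 the count was 2, RPL27A at 2.39 and RPLP2 at 2.78, both of them brighter on the 1 luciferase nucleofection array left, which is assumed to vary like the other groups.

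Luciferase siRNA by lipid gave 0 called members against untransfected cells (limma; 0% of all genes), and 0 members against 267 of all genes had an unadjusted p below 0.05. Of 56 members 48 were below 0, with a median of −0.09, against 0.07 over all genes. The median was −0.02 after quantile normalization, with 22 of 56 above 0, against 0.00 over all genes, −0.04 with the GAPDH ratio as a covariate and −0.17 with arrays centred on their medians. The arrays did not overlap, with lipid lower, for 13 members, or 23.2%, where 4.88% of all genes did so, and with lipid higher for 0, where 14.9% did so. RPL37 was at −0.16 and RPL22 at −0.19. RPL22 had 4652, 5004 and 4358 with luciferase siRNA by lipid, against 4883 and 5831 in untransfected cells, and overlapped. This comparison and those of the other groups with untransfected cells share the same 2 untransfected arrays. Set against them, the median over members was 0.29 with AML1-ETO siRNA by nucleofection and −0.02 with AML1-ETO siRNA by lipid.

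Several members were read by more than 1 probe set, and the probe sets of 1 gene did not always move together. Of 38 further probe sets of members, 32 were tested, and 9 were called higher and 3 lower by nucleofection (limma), against 3.76% and 21.8% of all probe sets. The RPS10 probe set 214001_x_at differed by 1.605, while the other 3 RPS10 probe sets lay between 0.47 and 0.55. The RPL38 probe sets 221943_x_at and 202028_s_at differed by 1.51 and 1.01, against 0.36 for the one used, 202029_x_at. RPL31 and RPS21 were picked out after their values were seen. RPL31 had probe sets at −0.70 and −0.47 beside the one used, at 0.39, and RPS21 had one at −0.85 beside the one used, at 0.18. Names ending in _s_at or _x_at mark probe sets that can take signal from related transcripts, and 45 of the 56 members tested were read by one. Of the 11 read by a plain _at probe set 3 were called higher, and of the 45 others 21.

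A pattern in some of the dimmer member probe sets, chosen after its values were seen and therefore not tested, set 2 arrays apart. The RPL14 probe set 219138_at had 349 after nucleofection without siRNA and 284 on luciferase nucleofection replicate 1, while the other 12 arrays lay between 41.0 and 103. The RPS10 probe set 214001_x_at had 660 and 548 on those arrays and 52.8 to 269 on the others. RPL27A had 918 and 654 there and 118 to 260 elsewhere, and RPLP2 had 642 and 384 there and 25.0 to 103 elsewhere. The RPL38 probe sets 202028_s_at and 221943_x_at showed the same arrays on top, at 3125 and 2490 and at 3100 and 2644. They had 442 to 953 and 327 to 1473 on the other arrays, well above the floor. Luciferase nucleofection replicate 1 had the highest log2 ratio of 3′ to 5′ control probe sets of the 14 arrays, 0.25 for GAPDH and 0.84 for ACTB, while the array without siRNA had −0.04 for GAPDH and 0.36 for ACTB. The part of these ratios in the pattern was not tested.

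These 6 probe sets were all the member probe sets on which both arrays exceeded each of the other 12 by over 1.5-fold. Above the other 12 arrays by any margin were 9 member probe sets, or 10.2%, against 1.87% of all. The 6 make 6.82% of the 88 member probe sets tested, and 12 of 10181 probe sets in all, or 0.118%, met that measure. The other 6 read TCF3, COX5B, EIF5A, EEF1D, ARPC4 and NUCKS1. The brighter RPL14 probe set 213588_x_at did not show the pattern, with 3346 and 3527 on those 2 arrays and 2531 to 3866 on the others.

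**Figure D5:**
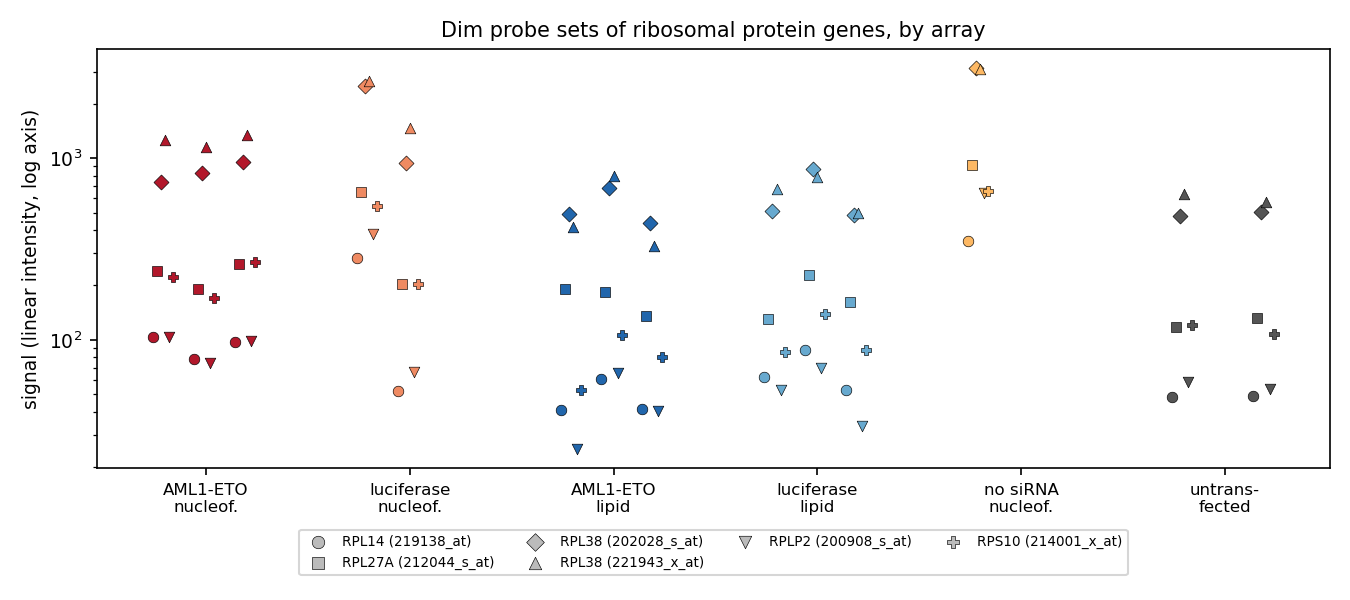
Signal (linear intensity on a log axis) of 6 of the dimmer probe sets of ribosomal protein genes on each array, by group. Each symbol is a probe set and each column of symbols an array. For all 6, the array of nucleofection without siRNA and 1 luciferase nucleofection array lie above the other 12, as for RPLP2 with 642 and 384 against at most 103.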

How the data were processed

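RNA of 14 Kasumi-1 samples was read on single-colour oligonucleotide arrays. The authors made 1 linear intensity per probe set with MAS5, per the submitters' processing notes, and multiplied each array by 1 scale factor, per the labels. Its version is not given in the sources used here. Each deposited array had a mean intensity of 139, so a change in the total signal of an array cannot be seen in the deposited values. Divided by the scale factor, the median signal of the tested members was 3486 to 5792 on the arrays of nucleofected siRNA. On the lipid arrays it was 4320 to 8502, so before scaling it was not higher by nucleofection. What the scale factors stand for was not tested. At a fixed mean, a larger part taken by bright genes leaves less for the others.

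Of 22283 probe sets, 19071 had 1 symbol by the platform annotation, 1043 had several and 2169 had none or were controls. Each of 11963 genes was represented by its brightest probe set (highest mean over 14 arrays). Intensities under 20 were set to 20 before log2, and the 60% of genes with the highest means (7178) entered the tests. A model of 6 group means over the 14 arrays was fitted in R 4.3.3 with limma 3.58.1 (lmFit, eBayes), with 8 residual and 4.65 prior degrees of freedom. The call threshold was 0.05 on the Benjamini-Hochberg adjusted p over all genes tested. The number of arrays limits the precision.

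Genes were named by p within each comparison, paralogue, stalk membership or disagreement between probe sets. Members, lists and rules were chosen with earlier results of these data known, and a higher level of ribosomal protein genes by nucleofection was among them. Other translation genes were 44 of a list of 53. In simulated data for 7178 genes, 35% of changes of 0.5 and 84% of changes of 1 on the log2 scale were recovered between nucleofection and lipid, and 40% and 83% for the mean AML1-ETO effect. The shares were 8% and 60% for the AML1-ETO effect by nucleofection, 8% and 70% by lipid and 0% and 5% for the difference of the 2. Against untransfected cells they were 0% and 44% for luciferase nucleofection and 9% and 55% for luciferase lipid. The simulated noise was independent between genes and arrays, and the changed genes were drawn from all 7178. The shares are thus not those of the members, whose median SE between nucleofection and lipid was 0.11, against 0.14 over all genes. No 2 arrays held identical values. Promoters were read with Python 3.11.15.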

Additional observations from a re-analysis of the deposited data

Results flagged for a closer look

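The array of nucleofection without siRNA enters no comparison of the ribosomal protein genes with a test, and 2 tested members stood there over 2-fold above both untransfected arrays. RPL27A had 918, against 118 and 131 in untransfected cells, 6.98-fold above the higher of them. RPLP2 had 642, against 53.3 and 58.4 in untransfected cells, 11.0-fold above the higher of them. The difference rests on 1 array and was not tested, and luciferase nucleofection replicate 1 showed it for the same probe sets.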

How the results depend on the processing

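Between nucleofection and lipid the called ribosomal protein genes numbered 25, and 3 after quantile normalization, 16 with the groups compared fitted alone, 0 with the GAPDH ratio and 0 with the log2 scale factor as covariate, the last chosen after seeing the data. With single arrays left out they numbered 7 to 24, and under the other scalings, floors, filters, probe set choices and variance models 17 to 37. RPS10 changed sign under quantile normalization, at −0.0084, a value near 0. Its signal was the highest of all probe sets on several arrays, such as AML1-ETO nucleofection replicate 1 (14486) and AML1-ETO lipid replicate 3 (7189). That scaling gives every array the same highest value, so it cannot show whether RPS10 differed. By nucleofection the AML1-ETO comparison gave 1 call with the mean of all probe sets, RPL37A, which was lower at −0.64 (adjusted p = 0.0327, limma). Its probe sets lay between −1.30 and −0.06. Without luciferase nucleofection replicate 2, which leaves 1 luciferase nucleofection array, RPL27A stood at −1.52. Luciferase nucleofection against untransfected cells gave 1 call without a floor, 1 at a floor of 64, 2 with the mean of all probe sets, 4 with a trended robust variance and 0 to 2 with single arrays left out. With the replicate block the nucleofection count was 13. Same-numbered arrays did not deviate together (r between −0.29 and 0.05 over 22 pairs, 0 above 0.1), so the numbers were not taken as pairs. Counts of the other comparisons stayed at 0 under the alternatives run. Of 1029 gene values recomputed, 967 stayed on their side of the threshold. Genes above the floor on fewer than 2 arrays were left out where the filter or floor was changed. Probe sets not above the floor have only a bound, and neither covariate is balanced over the groups.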
